A study of Mus musculus with 60 samples.

Results

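Livers of male mice fed the HF/HS diet, high in milkfat and sucrose, for 20 weeks were compared with livers of male mice fed a control diet for 20 weeks. The libraries were chosen by their labels for sex, diet and time alone, which gave 5 HF/HS and 5 control libraries, 10 of the 60 libraries in the series. All mice were of strain CC042/GeniUnc, an inbred line of the Collaborative Cross, which is a panel of recombinant inbred mice bred for genetic diversity. The series was made to follow the liver transcriptome as fatty liver disease progresses in both sexes over 20, 40 and 60 weeks, in 12 groups of 5 animals. The HF/HS diet took 42% of its energy from milkfat and held 0.2% cholesterol and more than 30% sucrose. The control diet was matched to it in ingredients, with less fat and less sucrose. Both groups therefore shared strain, sex and feeding time, and the effects of fat, cholesterol and sucrose cannot be told apart. The labels give the time on the diet but not the age of the mice. A single inbred strain was used, so that the differences below belong to 1 genetic background.

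Excess fat in the liver is stored as triglyceride in lipid droplets inside hepatocytes. In fatty livers, monocytes from the blood become macrophages that gather around lipid-laden hepatocytes and make a typical set of lipid-handling and matrix-degrading proteins, while stellate cells and portal fibroblasts lay down collagen. Sterol synthesis genes are driven by the transcription factor SREBP2, which sterols hold inactive, and fatty acids activate PPAR receptors, which drive genes of fat oxidation and fat storage.

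Values are CPM, counts brought to a common total by each library's scaled size. Animals are listed in a set order throughout, which is 261, 271, 411, 412 and 413 for the HF/HS diet and 181, 182, 371, 372 and 373 for the control diet. Library totals ran from 10923963 to 16017386 counts, and the weakest correlation within a group was 0.955 (Pearson's r over genes). Of the variance in these libraries, 40.6% lay on a first component, on which animals 411 and 413 had the highest loadings (0.45 and 0.46, other HF/HS animals 0.16 to 0.20, control animals -0.38 to -0.03). Another 22.7% lay on a second component that set control animal 373 (0.86) apart from all others. In animal 373, 1586 genes were more than 1 log2 unit away from the mean of the other animals of its group, against 337 to 767 in each other library. The Y-linked gene Uty was at 47.9 to 54.0 CPM in HF/HS and 54.8 to 62.0 CPM in control libraries, and Xist was at most 0.367 CPM. Other Y-linked genes were less even. Eif2s3y was at 6.80 CPM in control animal 182 and 35.3 to 62.0 CPM in the other libraries. Ddx3y was at 93.5 CPM in control animal 373 and 135 to 171 CPM in the others. Kdm5d ran from 26.5 CPM in control animal 182 to 45.9 CPM in control animal 181. Alb, which encodes albumin, was at 10217 to 11951 CPM in HF/HS and 10568 to 12844 CPM in control livers. Genes of haemoglobin had 0 counts in all 10 libraries, so red blood cell content could not be read from them. Pancreatic enzyme genes were highest in HF/HS animal 271 and control animal 373 (mean log2 CPM of the list 1.29 and 1.48, others -2.43 to -0.40), and skeletal muscle genes in control animals 372 and 373 (3.25 and 2.71, others -1.75 to 0.09). Nothing in the labels says how the animals were housed or related, so p-values measure the spread between libraries, pooled over the 12 groups of the fit, which may be technical in part.

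The test called 2034 genes higher on the HF/HS diet (14.3% of 14180 genes tested) and 2062 lower (14.5%), which together was 28.9%. These shares are the background for each list count of this test below. Called means a Benjamini-Hochberg adjusted p under 0.05 in edgeR's quasi-likelihood test, fitted on all 60 libraries with the 12 groups as the model. The increases were larger than the decreases. At least 2-fold increases numbered 863 (6.09%) and at least 2-fold decreases 200 (1.41%), while the median gene was at a log2 fold change of -0.01. CPM ranges of the groups did not overlap for 967 genes that were higher on the HF/HS diet (6.82%) and 749 that were lower (5.28%). The count of called genes was 1771 when only these 10 libraries were fitted. In whole liver, fewer cells of a type and less RNA per cell cannot be told apart, which touches every marker gene below.

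**Figure D1:**
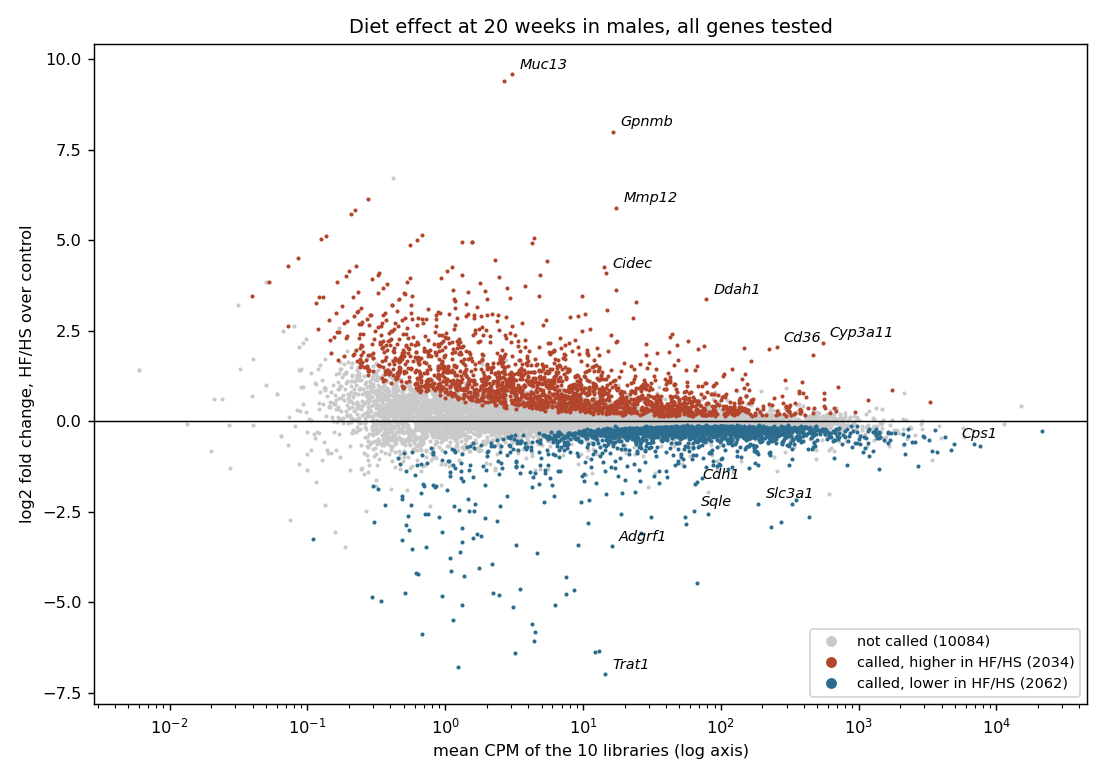
Log2 fold change, HF/HS over control, against the mean CPM of the 10 libraries (log axis) for the 14180 genes tested. Each point is a gene, and called genes are coloured, 2034 higher and 2062 lower. Increases reach further from 0 than decreases among genes of middle abundance, with Gpnmb and Mmp12 among the highest, while the abundant gene Cps1 moved by less than 1 log2 unit.

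**Figure D2:**
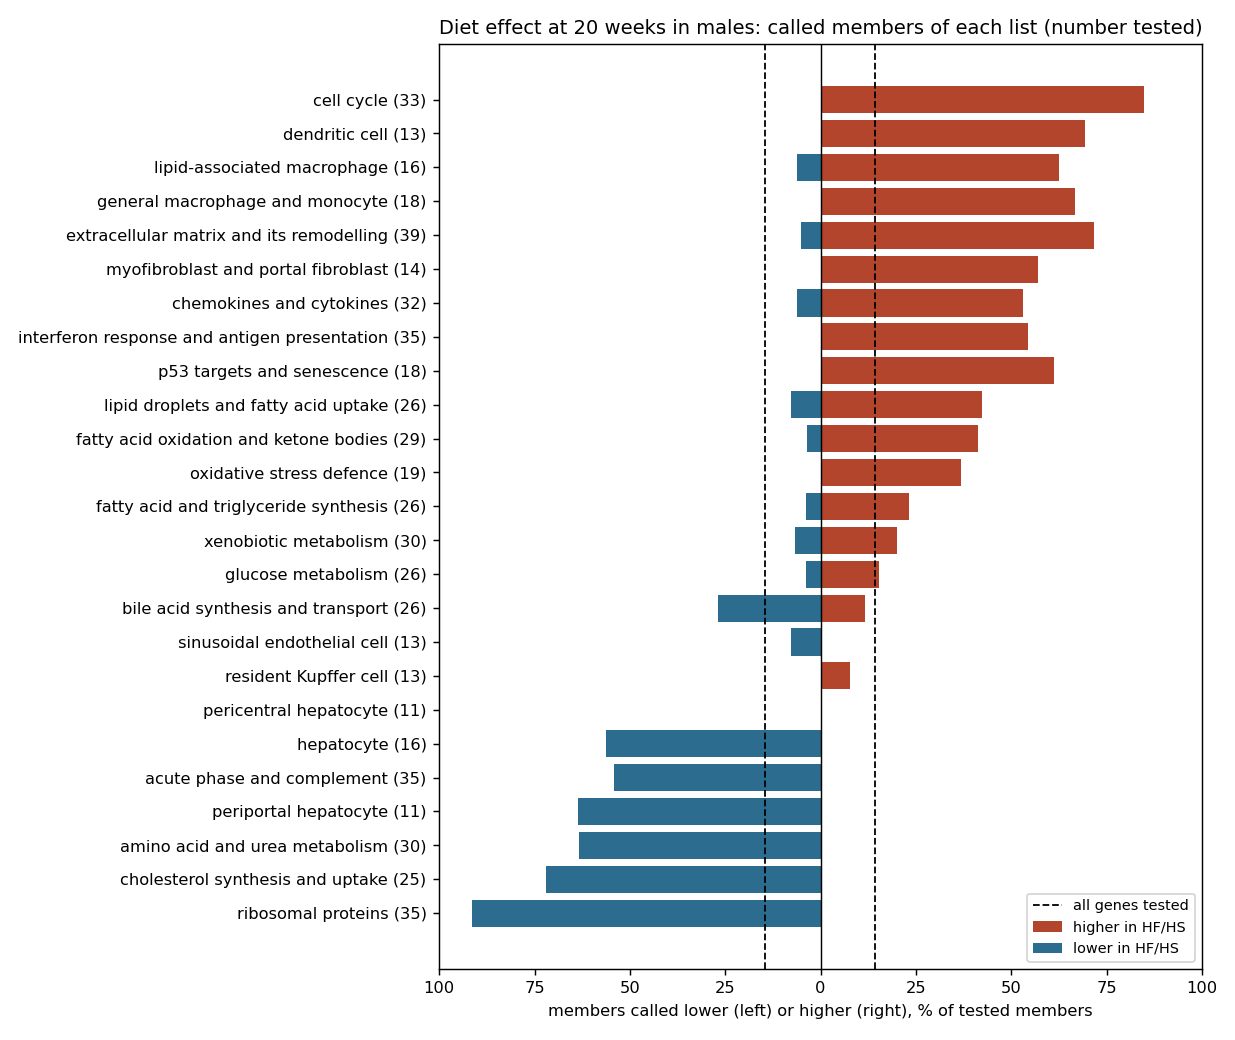
Share of tested members called higher (right) or lower (left) on the HF/HS diet, for 25 gene and marker lists with the number of tested members in brackets. Dashed lines mark the shares over all genes, 14.3% higher and 14.5% lower. Cell cycle, dendritic cell, macrophage and matrix lists lie far to the right and ribosomal, sterol and amino acid lists far to the left.

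Genes of macrophages that take up lipid gave some of the largest changes. Of 16 tested marker genes of lipid-associated macrophages, 10 were called higher and 1 lower, with a median log2 fold change of 1.87 beside -0.01 over all genes. Mmp12, the macrophage elastase (chr9:7344381-7369499, plus strand, mm10), was at 34.7, 38.0, 28.4, 28.6 and 42.0 CPM in HF/HS livers, against 0.358, 0.224, 0.353, 0.689 and 1.2 CPM in control livers. Itgax, the integrin subunit CD11c (chr7:128129547-128150657, plus strand), was at 7.86, 6.74, 7.09, 5.91 and 7.68 CPM in HF/HS livers and 0.0716, 0.448, 0.494, 0.492 and 1.06 CPM in control livers. In both genes the HF/HS animals lay close together and far above every control animal, among which 373 was highest. The log2 fold changes were 5.90 ± 0.64 for Mmp12 and 3.74 ± 0.45 for Itgax (adjusted p = 3.25e-09 and 2.88e-08, edgeR). Gpnmb, a membrane glycoprotein of lipid-laden macrophages (chr6:49036546-49070929, plus strand), averaged 32.8 ± 4.29 CPM in HF/HS and 0.123 ± 0.0732 CPM in control livers (SD, n = 5 each), and no control animal passed 0.197 CPM. Trem2, a lipid-sensing receptor of myeloid cells, rose by 2.92 ± 0.48, with 2.36 to 5.16 CPM in HF/HS livers and 0 to 0.865 CPM in control livers. Atp6v0d2, a subunit of the lysosomal proton pump, rose by 2.05 ± 0.44, but control animal 373 at 4.59 CPM lay within the HF/HS range of 4.31 to 7.90 CPM, and without it the change was 3.28. The member that went the other way was Fabp5, a fatty acid binding protein that hepatocytes also make. Fabp5 was at 15.8, 17.5, 14.3, 9.45 and 18.1 CPM in HF/HS livers and 26.2, 33.3, 112, 77.1 and 223 CPM in control livers. Control animals 371, 372 and 373 held the high values, and the change of -2.65 ± 0.45 was -2.03 without animal 373.

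Markers of dendritic cells and antigen presentation rose with them. Among 13 dendritic cell markers 9 were called higher and 0 lower, with a median of 2.01. Itgax belongs to this list as well. H2-Aa and H2-Eb1, chains of class II histocompatibility molecules, averaged 95.6 ± 23.1 and 71.9 ± 15.2 CPM in HF/HS livers and 20.5 ± 4.76 and 14.3 ± 2.96 CPM in control livers, with log2 fold changes of 2.22 ± 0.28 and 2.33 ± 0.27. Cd74, the invariant chain that accompanies them, was at 180.0 to 292 CPM in HF/HS livers and 45.2 to 77.1 CPM in control livers, a change of 2.03 ± 0.24. Ciita, the transactivator that switches on class II genes, rose by 2.16 ± 0.31. The groups did not overlap in any of these 4 genes, with adjusted p of 1.04e-06 or less. Genes of the H2 region resemble each other and can share reads, so single values of H2 genes are uncertain. H2-M2, a class I relative, averaged 2.56 ± 0.531 CPM in HF/HS and 0.0692 ± 0.0686 CPM in control livers (4.96 ± 0.73).

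Chemokines that draw such cells into tissue were also higher. Of 32 tested chemokine and cytokine genes 17 were called higher and 2 lower, with a median of 0.88. Ccl2, which attracts monocytes, was at 3.82, 4.99, 5.67, 4.62 and 6.90 CPM in HF/HS livers, against 0.286, 0.448, 0.353, 0.295 and 0.599 CPM in control livers (3.67 ± 0.47, adjusted p = 9.95e-08). Cxcl10, an interferon-induced ligand for lymphocytes, was at 7.27, 8.62, 7.09, 9.81 and 11.5 CPM in HF/HS livers and 0.787, 1.27, 0.565, 0.689 and 0.665 CPM in control livers (3.47 ± 0.43, adjusted p = 5.46e-08). Both genes were several times higher in every HF/HS animal than in any control animal. Ccl22, a ligand made by dendritic cells and macrophages, had 41 counts over the 5 HF/HS libraries and 0 over the control libraries, and with 3 counts taken as the limit for the control group it was at least 12.4-fold higher. Ccr2, the receptor for Ccl2, was at 10.7, 13.7, 18.2, 11.3 and 20.3 CPM in HF/HS livers and 0.716, 2.84, 3.67, 3.35 and 7.25 CPM in control livers (2.05 ± 0.33), with animal 373 the highest control. Themis, an adaptor of the T cell receptor, was at 6.47 to 19.6 CPM in HF/HS livers and 0.286 to 0.798 CPM in control livers (4.44 ± 0.56). Of 17 listed T and natural killer cell markers, 8 passed the filter on low counts and 4 were called higher, which became 2 without animal 413. In a fit of these 10 libraries alone 0 were called higher. That fit filtered low counts anew, so members could drop out untested, and the list median was -0.89 there against 1.52 in the main fit.

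**Figure D3:**
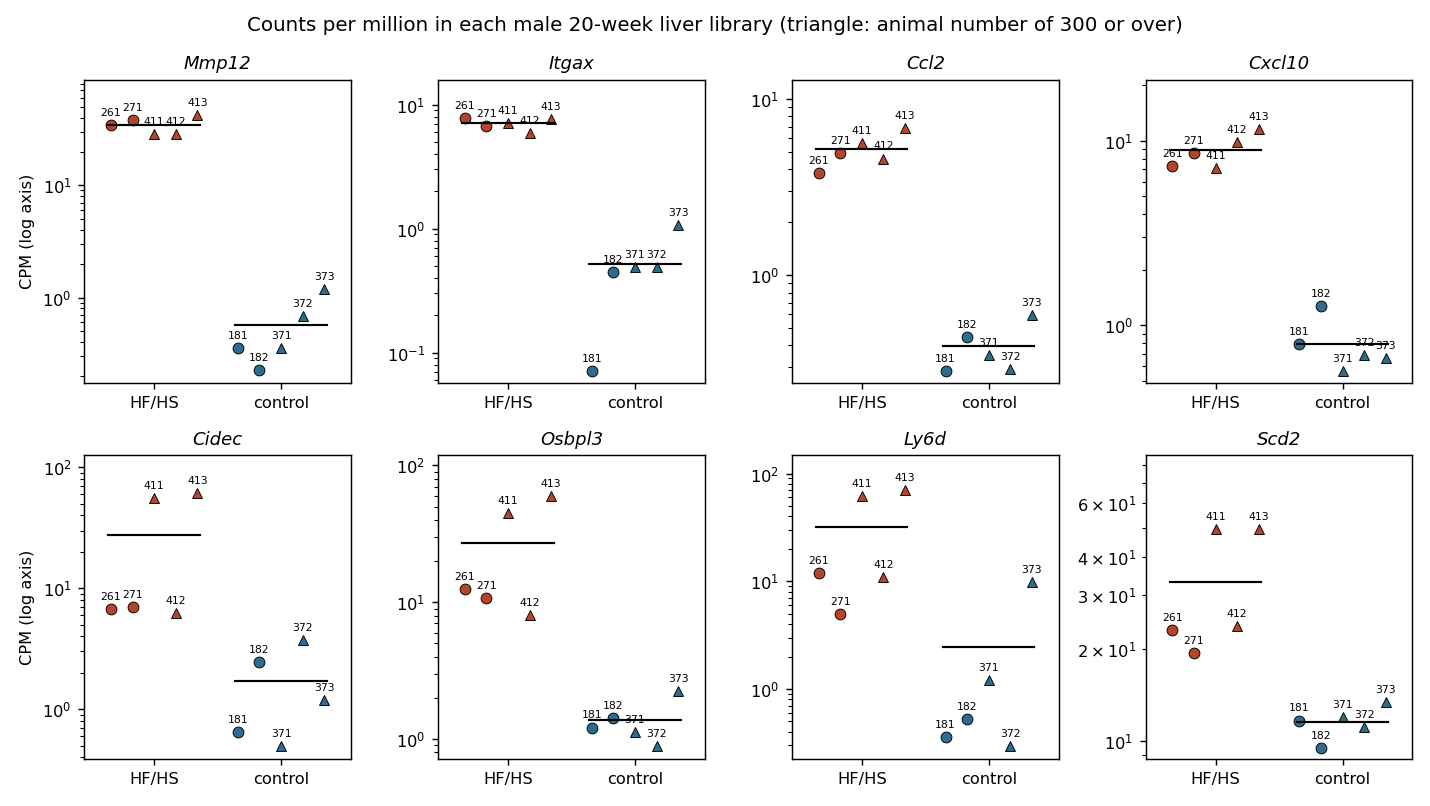
CPM (log axes) of 8 genes in each library, HF/HS left and control right, with the animal number at each point, triangles for animal numbers of 300 or over and a line at the group mean. Mmp12, Itgax, Ccl2 and Cxcl10 are at like levels in all 5 HF/HS animals, whereas Cidec, Osbpl3, Ly6d and Scd2 are highest in animals 411 and 413.

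General macrophage and monocyte markers gave a less even picture. Of 18 tested, 12 were called higher and 0 lower (median 1.11), and the count was 17 without animal 373. The list level, a mean log2 CPM, was 4.47, 4.24, 4.55, 4.14 and 4.53 in HF/HS animals and 2.17, 2.40, 3.66, 3.20 and 4.27 in control animals. Control animals 181 and 182 lay lowest and animal 373 reached the HF/HS range. Lyz2, which encodes lysozyme, was at 103, 86.1, 99.8, 74.0 and 108 CPM in HF/HS livers, against 18.8, 26.8, 43.8, 42.1 and 46.3 CPM in control livers (1.41 ± 0.25). Ctss, the protease that trims the invariant chain, was at 94.0, 73.2, 81.5, 68.1 and 88.3 CPM in HF/HS livers and 15.2, 15.3, 38.5, 27.9 and 53.2 CPM in control livers (1.43 ± 0.31). In both genes controls 371, 372 and 373 were above controls 181 and 182, yet below all HF/HS animals. Fcgr1, a receptor for immunoglobulin G, rose by 1.49 ± 0.35 and was at 2.99 CPM in control animal 373 beside 3.10 to 5.53 CPM in HF/HS animals. Animal numbers fall in ranges below and above 300, and the labels do not say what the numbers mean. Within numbers under 300 (2 HF/HS and 2 control animals), 18 of the 18 genes were called higher with a median of 2.16, and within numbers of 300 or over (3 animals each) 5 were, with a median of 0.69. Markers of resident Kupffer cells stood at 1 higher and 0 lower of 13, with a median of 0.06. Within numbers under 300 they stood at 2 higher and 0 lower (median 0.86). Within 300 or over they stood at 0 higher and 1 lower (median -0.20).

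Genes induced by interferon rose as well. Of 35 tested genes of interferon response and antigen presentation 19 were called higher and 0 lower (median 0.53), and CPM ranges did not overlap in 16 of the 35. Gbp2, an interferon-induced guanylate-binding protein, was at 17.6, 20.1, 18.1, 16.9 and 16.9 CPM in HF/HS livers and 3.79, 5.23, 5.08, 6.40 and 10.4 CPM in control livers (1.53 ± 0.29, adjusted p = 9.07e-05). Its neighbour Gbp3 was at 9.03, 9.30, 12.5, 10.1 and 8.94 CPM in HF/HS livers and 1.65, 3.14, 3.81, 3.15 and 4.99 CPM in control livers (1.56 ± 0.28, adjusted p = 4.23e-05). Every HF/HS animal exceeded every control animal in both genes, and control animal 373 was the highest of its group. The diet effect in females at 20 weeks was -0.18 ± 0.27 for Gbp2 and -0.23 ± 0.25 for Gbp3, and the difference, males minus females, was 1.71 ± 0.40 and 1.79 ± 0.38 (adjusted p = 0.0267 and 0.0146, edgeR). Over all genes 65 effects were called higher in males than in females (0.458%) and 24 lower (0.169%). Of the 35 list members 6 differences were called higher and 0 lower. Without animal 373 the count was 11, while over all genes it became 510 (3.58%). The difference for Gbp2 was no longer called without animal 181, 182 or 421, and that for Gbp3 was called in each of the 20 fits that left out 1 library of the comparison.

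The promoters of both genes are shown because they hold the core of the interferon-stimulated response element. The core was searched as GAAANNGAA on both strands of the 300 bases from 250 before to 50 after the gene start (RefSeq, GRCm38.p6). It was in 16 of 31 windows of the list (51.6%, from 26 of 35 genes with a window) and in 8.56% of 32851 windows of all genes. Of 14 called list members with a window, 9 held it. Capitals mark the core, which reads on the reverse strand in both promoters. In Gbp3 a pair of cores overlap and make up a single run of capitals. Gbp3 is shown from chr3:142559794-142560093 and Gbp2 from chr3:142620413-142620712, both on the plus strand.
Gbp3: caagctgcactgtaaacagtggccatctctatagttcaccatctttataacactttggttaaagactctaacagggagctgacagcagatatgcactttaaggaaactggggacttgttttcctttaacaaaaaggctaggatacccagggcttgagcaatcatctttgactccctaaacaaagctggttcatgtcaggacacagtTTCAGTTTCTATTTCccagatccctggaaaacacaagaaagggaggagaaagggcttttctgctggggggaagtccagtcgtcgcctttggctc
Gbp2: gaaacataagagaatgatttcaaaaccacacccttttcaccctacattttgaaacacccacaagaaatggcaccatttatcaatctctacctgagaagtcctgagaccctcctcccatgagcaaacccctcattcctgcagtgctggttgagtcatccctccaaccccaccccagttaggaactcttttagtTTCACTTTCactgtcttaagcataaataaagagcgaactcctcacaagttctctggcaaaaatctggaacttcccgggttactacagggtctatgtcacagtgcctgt

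Proliferation genes were low in control livers and higher in HF/HS livers. Of 33 tested cell cycle genes 28 were called higher and 0 lower, the median was 1.90, and CPM ranges did not overlap in 24. Mki67, the nuclear marker of cycling cells, was at 10.1, 12.6, 31.9, 14.4 and 22.0 CPM in HF/HS livers and 2.51, 2.09, 1.84, 2.36 and 2.86 CPM in control livers (2.96 ± 0.52, adjusted p = 3.05e-05). Prc1, which bundles spindle microtubules, was at 1.17, 1.82, 5.26, 1.73 and 3.60 CPM in HF/HS livers and 0.358, 0.299, 0.141, 0.0984 and 0.200 CPM in control livers (3.56 ± 0.65). Animals 411 and 413 were the highest for both genes. Bub1, a kinase of the spindle checkpoint, had 81 counts over the HF/HS libraries and 2 over the control libraries, a ratio of 36.6 with an exact 95% interval of 9.81 to 307. Plk1, a mitotic kinase, was at 0.881 to 2.29 CPM in HF/HS livers and 0 to 0.286 CPM in control livers (3 ± 0.56), and Cenpf, a kinetochore protein, rose by 3.39 ± 0.72. Which cells carried these transcripts was not tested.

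Bub1 and Prc1 promoters are shown because both hold elements known from genes of late cell cycle phases, the cell cycle homology region (CHR, searched as TTTGAA or TTCGAA) and the CCAAT box (CCAAT). A CHR was found on either strand in 17 of 28 windows of the list (60.7%, from 26 of 34 genes with a window) and in 19.2% of the 32851 windows of all genes. A CCAAT box was found in 24 of 28 windows (85.7%) and in 37.4% of all windows. Of the 22 called genes with a window 15 held a CHR and 21 a CCAAT box. Capitals mark these elements, which do not overlap each other. In Bub1 they are a CCAAT box read on the reverse strand, a CCAAT box on the gene's strand and a CHR, and in Prc1 a CCAAT box and a CHR. Bub1 is shown from chr2:127831810-127832109 on the minus strand and Prc1 from chr7:80294201-80294500 on the plus strand.
Bub1: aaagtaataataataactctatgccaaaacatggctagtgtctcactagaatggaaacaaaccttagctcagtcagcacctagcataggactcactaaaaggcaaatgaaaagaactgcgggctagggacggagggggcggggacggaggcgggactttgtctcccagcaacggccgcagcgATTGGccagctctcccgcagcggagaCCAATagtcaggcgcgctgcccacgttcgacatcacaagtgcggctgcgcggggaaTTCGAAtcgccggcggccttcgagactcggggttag
Prc1: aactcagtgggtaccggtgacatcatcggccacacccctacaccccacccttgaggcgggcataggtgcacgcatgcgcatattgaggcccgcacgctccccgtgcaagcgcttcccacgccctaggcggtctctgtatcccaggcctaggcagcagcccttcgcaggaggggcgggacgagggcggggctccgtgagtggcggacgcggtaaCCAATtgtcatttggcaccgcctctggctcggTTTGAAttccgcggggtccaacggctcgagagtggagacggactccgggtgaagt

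Targets of the tumour suppressor p53, which responds to DNA damage and other stress, were raised at 20 weeks. Of 18 tested genes 11 were called higher and 0 lower, with a median of 0.63, and CPM ranges did not overlap in 8. Eda2r, a death-domain receptor of the tumour necrosis factor family, was at 15.4, 25.1, 12.9, 15.1 and 16.5 CPM in HF/HS livers and 4.15, 5.60, 4.94, 1.97 and 5.92 CPM in control livers (1.89 ± 0.30, adjusted p = 7.19e-06). Gdf15, a secreted stress signal, was at 29.5, 22.6, 22.5, 10.9 and 16.1 CPM in HF/HS livers and 4.44, 7.47, 4.87, 2.85 and 4.92 CPM in control livers (2.03 ± 0.39, adjusted p = 9.5e-05). No HF/HS animal fell into the control range for either gene, although HF/HS animal 412 was low for Gdf15. Phlda3, a p53-induced inhibitor of Akt, rose by 2.08 ± 0.35, and Tnfrsf10b, a death receptor, by 1.44 ± 0.28. Cdkn1a, the cell cycle inhibitor p21 and the best known of these targets, was at 191, 64.3, 154, 119 and 52.7 CPM in HF/HS livers and 53.2, 56.2, 133, 41.2 and 48.4 CPM in control livers. Its groups overlapped, with control animal 371 among the high values, and the difference of 0.80 ± 0.46 did not pass (adjusted p = 0.19).

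The same genes had other diet effects in animals fed for longer. Eda2r was at 0.33 ± 0.29 after 40 weeks and -0.77 ± 0.28 after 60 weeks in males, and at 0.04 ± 0.29 in females after 20 weeks. Gdf15 was at 0.24 ± 0.37 and -1.34 ± 0.34 after 40 and 60 weeks in males, and at 0.37 ± 0.36 in females. Against males at 60 weeks, 11 of 18 differences were called higher at 20 weeks and 0 lower, beside 9.25% of all genes (576 higher, 4.06%, and 736 lower, 5.19%), and the count was 7 without animal 373, beside 3.32% of all genes higher. Among these were Eda2r (2.66 ± 0.42), Gdf15 (3.37 ± 0.52), Phlda3 (2.61 ± 0.46) and Tnfrsf10b (1.25 ± 0.38), the last not called without animal 373 or animal 411. Against males at 40 weeks 3 of 18 were called higher (0.86% of all genes higher, 122, and 1.31% lower, 186, though with RLE size factors 49.8% of the calls were higher), with Eda2r at 1.56 ± 0.42, which was not called without animal 271, 372, 492, 493, 522 or 523. Against females at 20 weeks 2 were, beside 0.458% of all genes, and without animal 373 the count was 5, beside 3.58%. The pair was Eda2r (1.85 ± 0.42), not called without animal 181, 203 or 271, and Phlda3 (2.09 ± 0.49), not called without animal 181, 182 or 203. No library is shared between these effects and that of males at 20 weeks.

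**Figure D4:**
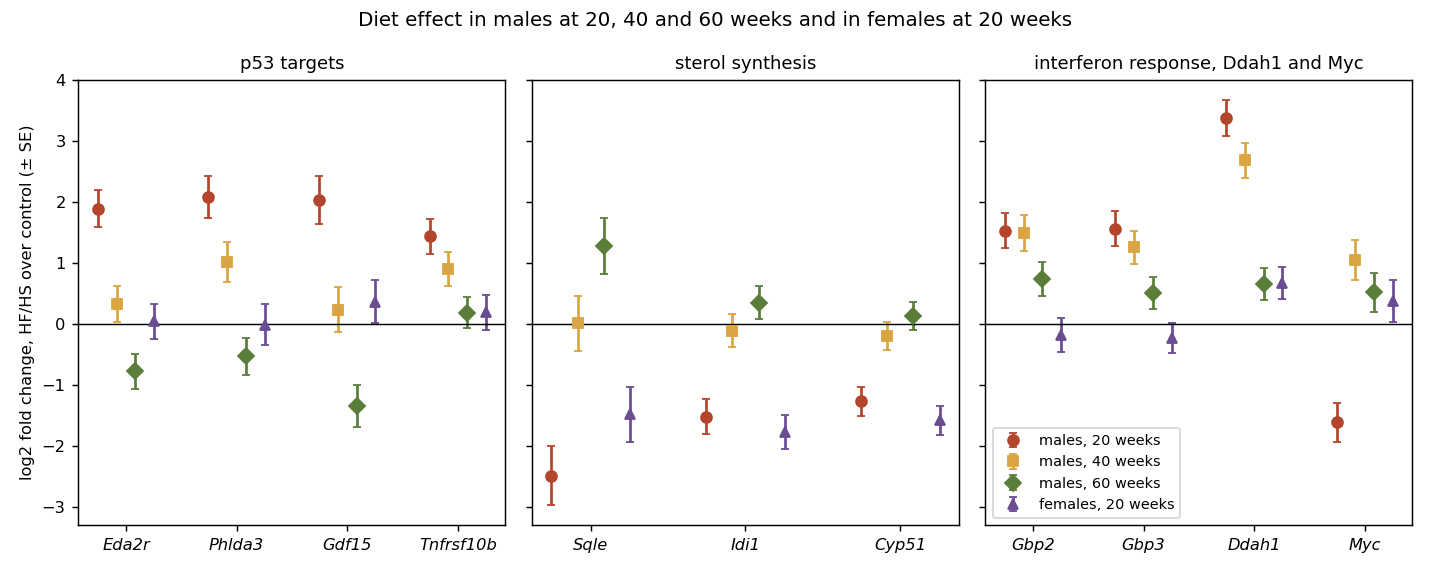
Log2 fold change, HF/HS over control, with its standard error, in males at 20, 40 and 60 weeks and in females at 20 weeks, 5 animals per group. In males, the 4 p53 targets on the left are above 1 at 20 weeks and near or below 0 at 60 weeks, the sterol genes in the middle are below -1 at 20 weeks in both sexes but not at 40 or 60 weeks in males, and Ddah1 on the right is high at 20 and 40 weeks in males.

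Matrix genes rose with markers of myofibroblasts and portal fibroblasts, and these lists share Col1a1, Col15a1 and Eln. Of 39 tested genes of extracellular matrix and its remodelling 28 were called higher and 2 lower, with a median of 0.77. Col1a1, the main chain of fibrillar collagen, was at 23.1, 23.2, 102, 15.7 and 54.7 CPM in HF/HS livers and 3.01, 3.44, 5.44, 3.74 and 6.45 CPM in control livers (3.30 ± 0.45, adjusted p = 3.45e-07). Animals 411 and 413 were far above the other HF/HS animals, which were in turn above all controls. Mmp13, a collagenase, was at 3.38, 4.51, 5.33, 3.82 and 5.88 CPM in HF/HS livers and 0.429, 0.224, 0.282, 0.295 and 0.200 CPM in control livers (3.97 ± 0.45). Timp1, an inhibitor of such proteases, rose by 3.54 ± 0.68 at low levels, 0.294 to 1.68 CPM in HF/HS and 0 to 0.143 CPM in control livers. Of 14 markers of myofibroblasts and portal fibroblasts 8 were called higher and 0 lower (median 0.77), with CPM ranges that did not overlap in 6. Cd34, a surface protein of fibroblasts and endothelium, rose by 1.41 ± 0.28, the matrix glycoprotein gene Fbln2 by 1.35 ± 0.25 and the ectonucleotidase gene Entpd2, a marker of portal fibroblasts, by 1.40 ± 0.26. Stellate cell markers stood at 3 higher and 0 lower of 13 (median 0.20), and 5 higher and 1 lower without animal 373. Pdgfrb, the growth factor receptor of these cells, was at 23.4, 27.7, 37.9, 26.1 and 43.1 CPM in HF/HS livers and 11.9, 14.1, 15.9, 15.7 and 25.8 CPM in control livers (0.92 ± 0.18), with animal 373 above the lowest HF/HS animal. Sinusoidal endothelial markers stood at 0 higher and 1 lower of 13 (median -0.13).

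Of the bile duct markers, 4 were called higher and 0 lower of 13 tested, and 1 was higher without animal 413. Cftr, the chloride channel of duct cells, was at 0.514, 1.08, 2.63, 0.288 and 2.76 CPM in HF/HS livers and 0.501, 0.672, 0.424, 0.492 and 0.599 CPM in control livers. The high values were those of animals 411 and 413, and the change of 1.44 ± 0.49 became 1.14 and 1.08, neither called, when each was left out. Krt23, a keratin also found in stressed hepatocytes, was at 5.73, 15.4, 17, 16.2 and 18.8 CPM in HF/HS livers and 6.30, 12, 0.353, 1.18 and 0.133 CPM in control livers. Controls 181 and 182 reached into the HF/HS range, and the change was 1.87 ± 0.57, or 2.87 without animal 182. Muc13, an epithelial mucin (chr16:33794037-33819934, plus strand), was at 1.32, 0.809, 14.4, 0.577 and 13.6 CPM in HF/HS livers and had 0 counts in all control livers, which made it at least 144-fold higher by the same limit of 3 counts. Sprr1a, a protein of the cornified envelope (chr3:92483952-92485895, minus strand), was at 2.20, 1.48, 8.03, 1.15 and 14.0 CPM in HF/HS livers with 0 counts in control livers, at least 127-fold higher. Both were present in all HF/HS animals and highest in 411 and 413. The fitted change of Sprr1a was 9.40 ± 1.40, and 8.65 without animal 413.

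Several other genes shared this distribution, which was described after their values had been seen. Osbpl3, a lipid-binding protein of the oxysterol-binding family, was at 12.5, 10.8, 44.7, 8.08 and 59.8 CPM in HF/HS livers and 1.22, 1.42, 1.13, 0.886 and 2.26 CPM in control livers (4.27 ± 0.61). Bmp8b, a ligand of the bone morphogenetic protein family, was at 1.76, 1.15, 14.9, 1.44 and 22.2 CPM in HF/HS livers and 0.286, 0.373, 0.141, 0 and 0.466 CPM in control livers (4.93 ± 0.75, and 4.14 without animal 413). Ly6d, a surface protein of the Ly6 family, was at 12, 4.99, 61.9, 11.0 and 70.0 CPM in HF/HS livers and 0.358, 0.523, 1.2, 0.295 and 9.91 CPM in control livers (3.61 ± 0.70, and 5.69 without animal 373). In all of these genes animals 411 and 413 stood several-fold above the other HF/HS animals, and in Ly6d control animal 373 lay within the range of the HF/HS group. Insyn1, a protein of inhibitory synapses, was at 0.587, 0.539, 4.66, 0.433 and 8.82 CPM in HF/HS livers and 0.143, 0.0747, 0.0706, 0.197 and 0 CPM in control livers (4.95 ± 0.84, and 4 without animal 413). The groups did not overlap in Osbpl3, Bmp8b and Insyn1. What sets animals 411 and 413 apart was not tested, and the labels give them the same group as the others.

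Fat storage genes rose in part. Of 26 tested genes of lipid droplets and fatty acid uptake 11 were called higher and 2 lower (median 0.35), and 7 higher without animal 371 or animal 411. Cidec, which fuses lipid droplets (chr6:113424634-113435760, minus strand), was at 6.68, 6.94, 55.7, 6.27 and 61.5 CPM in HF/HS livers and 0.644, 2.46, 0.494, 3.74 and 1.2 CPM in control livers (4.09 ± 0.69, adjusted p = 1.69e-05). Fitm1, which helps fat leave the endoplasmic reticulum into droplets, was at 27.2, 35.1, 53.8, 41.8 and 43.2 CPM in HF/HS livers and 10.4, 8.66, 4.31, 3.35 and 0.865 CPM in control livers (2.86 ± 0.38). Cidec showed the high pair 411 and 413, and Fitm1 did not. Pparg, the receptor that drives storage genes, was at 10.2, 8.15, 14.8, 7 and 19.4 CPM in HF/HS livers and 3.01, 2.24, 3.32, 2.36 and 2.86 CPM in control livers (2.10 ± 0.32). Cd36, a fatty acid transporter of hepatocytes and macrophages, was at 329, 344, 497, 342 and 534 CPM in HF/HS livers and 87.0, 86.7, 71.6, 66.7 and 182 CPM in control livers (2.05 ± 0.27). The groups were apart in both genes, and animal 373 was the highest control for Cd36.

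Of 26 genes of fatty acid and triglyceride synthesis, 6 were called higher and 1 lower (median 0.22). The count of 6 was 10 without animal 181, 3 without animal 182, 372, 411 or 413, and 2 in a fit of these 10 libraries alone. Mogat1, which makes diacylglycerol, was at 4.55, 2.76, 14.8, 4.76 and 16.3 CPM in HF/HS livers and 0.787, 0.299, 0.141, 0 and 0 CPM in control livers (5.05 ± 0.74, and 6.16 without animal 181). Scd2, a fatty acid desaturase that is low in adult liver, was at 23.1, 19.5, 49.3, 23.9 and 49.6 CPM in HF/HS livers and 11.7, 9.49, 12, 11.1 and 13.4 CPM in control livers (1.52 ± 0.39). Both were above the control range in every HF/HS animal. Fasn, fatty acid synthase, was at 1806, 1273, 5278, 1847 and 3227 CPM in HF/HS livers and 3517, 781, 1425, 1202 and 862 CPM in control livers. Control animal 181 exceeded 4 of the 5 HF/HS animals, and the difference of 0.79 ± 0.37 did not pass (adjusted p = 0.11), whereas it was 1.33 and called without animal 181. Elovl6, an elongase of the same pathway, was at 252, 216, 793, 245 and 515 CPM in HF/HS livers and 425, 141, 149, 111 and 86.0 CPM in control livers, with animal 181 again the highest control. Its change was 1.15 ± 0.44 (adjusted p = 0.0422) and 1.73 without animal 181, and it ranged from 0.76 to 1.08 and was not called when any of animals 182, 371, 372, 373, 411 or 413 was left out. Within animal numbers under 300 the list had 0 called higher and 1 lower, and within 300 or over 11 higher and 0 lower.

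Fatty acid oxidation genes, many of them targets of PPAR alpha, gave 12 higher and 1 lower of 29 (median 0.38). Aldh3a2, which oxidises fatty aldehydes, was at 543, 636, 841, 695 and 916 CPM in HF/HS livers and 299.6, 369.5, 144, 148 and 63.9 CPM in control livers (1.82 ± 0.27, adjusted p = 2.12e-06). Vnn1, a pantetheinase, was at 62.9, 82.3, 138, 96.9 and 165 CPM in HF/HS livers and 21.5, 49.97, 12.1, 15.2 and 36.9 CPM in control livers (2 ± 0.32). Groups were apart in both, with animal 182 the highest control. Cyp4a10, an omega-hydroxylase of fatty acids, was at 5.95, 18.1, 49.9, 13.9 and 46.6 CPM in HF/HS livers and 3.44, 14.3, 0.918, 0.492 and 6.19 CPM in control livers (2.39 ± 0.59, and 3.21 without animal 182), and as a member of the near-identical Cyp4a genes it is uncertain. Fgf21, a hormone of fasting and fat overload, was at 4.33, 4.92, 13.0, 4.04 and 11.8 CPM in HF/HS livers and 2.86, 3.88, 1.06, 1.87 and 2.93 CPM in control livers (1.59 ± 0.36). Animals 411 and 413 were highest for both. Within animal numbers under 300 the list stood at 1 higher and 1 lower (median -0.03), within 300 or over at 13 higher and 1 lower (median 0.62). None of the 23 promoter windows of this list (21 of 30 genes) held AGGNCAAAG, which 2.04% of all windows held. The string is a repeat of the PPAR element, its spacer and the start of the next repeat. It is thus stricter than a search for a single repeat.

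Sterol synthesis moved down. Of 25 genes of cholesterol synthesis and uptake 0 were called higher and 18 lower (median -0.71), and CPM ranges did not overlap in 5. Sqle, squalene epoxidase, was at 6.68, 9.43, 41.0, 8.73 and 30.9 CPM in HF/HS livers and 56.3, 24.9, 160.2, 137 and 164 CPM in control livers (-2.48 ± 0.48, adjusted p = 9.77e-05). Idi1, an isomerase of the mevalonate route, was at 7.49, 7.34, 12.2, 7.21 and 11.6 CPM in HF/HS livers and 23.4, 13.7, 34, 44.9 and 16.6 CPM in control livers (-1.52 ± 0.28, adjusted p = 6.72e-05). Animals 411 and 413 were the highest HF/HS animals in both and control animal 182 the lowest control, which animals 411 and 413 exceeded for Sqle but not for Idi1. Cyp51, lanosterol demethylase, was at 57.1, 61.2, 88.1, 70.5 and 74.3 CPM in HF/HS livers and 149.7, 101, 221, 234 and 138 CPM in control livers (-1.27 ± 0.24). Against the diet effect at 40 weeks in males, 7 of 25 differences were called lower and 0 higher, and against that at 60 weeks 8 and 0. Over all genes 1.31% were called lower against 40 weeks and 5.19% against 60 weeks. Without animal 373 the list counts were 6 and 6 lower, beside 0.351% and 2.8% of all genes. The called differences included Sqle (-2.49 ± 0.65 and -3.75 ± 0.66) and Idi1 (-1.41 ± 0.39 and -1.87 ± 0.40). Against 40 weeks each of these calls was lost in 13 of the 20 fits that left out 1 library, and against 60 weeks in 0 of 20. The sterol regulatory element, searched as TCACNCCAC on both strands, was in 1 of 20 windows (17 of 25 genes), a gene that was not called, and in 1.24% of all windows. This string fixes all but 1 base, and elements of other sequence or outside the windows were not searched. The count therefore does not show whether these genes lack such elements.

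Bile acid genes were mixed, 3 higher and 7 lower of 26 (median -0.22), and 2 higher and 12 lower without animal 373. Abcc3, which exports conjugates and bile acids into the blood, was at 284, 389, 416, 359.5 and 351 CPM in HF/HS livers and 129, 187, 38.8, 42.9 and 51.0 CPM in control livers (2 ± 0.30, adjusted p = 2.51e-06). Abcb4, which moves phosphatidylcholine into bile, was at 510.1, 428, 543, 501 and 573 CPM in HF/HS livers and 351, 449, 280.0, 288 and 240.4 CPM in control livers (0.67 ± 0.11). Controls 181 and 182 were the highest controls in both, and 182 overlapped HF/HS animal 271 in Abcb4. Cyp2c70, the enzyme that makes muricholic acids in mice, was at 1371, 1236, 505, 1031 and 452 CPM in HF/HS livers and 1255, 1612, 1715, 2006 and 1496 CPM in control livers (-0.82 ± 0.21), lowest in animals 411 and 413. Cyp7a1, the enzyme that sets the rate at which bile acids are made, was at 166, 196, 110.1, 84.6 and 318 CPM in HF/HS livers and 62.1, 148, 30.0, 74.8 and 7.25 CPM in control livers. Its groups overlapped, the change of 1.44 ± 0.57 was only just called (adjusted p = 0.0498), and it was not called when any of animals 181, 371, 372, 373, 261, 271 or 413 was left out (1.13 to 1.52).

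Amino acid and urea metabolism was lower. Of 30 genes 0 were called higher and 19 lower (median -0.41), and CPM ranges did not overlap in 10, while a fit of these 10 libraries alone called 10 lower. Gls2, the liver glutaminase, was at 125, 163, 166, 177 and 154 CPM in HF/HS livers and 349, 258, 268, 274 and 294 CPM in control livers (-0.88 ± 0.13, adjusted p = 1.15e-06). Hal, which breaks down histidine, was at 222, 262, 223, 291 and 209 CPM in HF/HS livers and 469.7, 392, 369, 403 and 420.4 CPM in control livers (-0.77 ± 0.12, adjusted p = 2.95e-06). Every HF/HS animal was below every control animal in both. Cps1, which starts the urea cycle, averaged 3879 ± 829.8 CPM in HF/HS and 5959 ± 632 CPM in control livers (-0.62 ± 0.13), and Got1, cytosolic aspartate aminotransferase, 128 ± 37.5 and 231 ± 50.5 CPM (-0.85 ± 0.18). Asns, asparagine synthetase, was at 13.4, 7.82, 9.18, 5.41 and 11.1 CPM in HF/HS livers and 10.2, 9.93, 30.5, 26.9 and 36.2 CPM in control livers (-1.28 ± 0.40). Here controls 181 and 182 were at the HF/HS level and controls 371, 372 and 373 were high, and within animal numbers under 300 the change was 0.09.

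Markers of hepatocytes by position in the lobule moved unequally. Hepatocytes next to the portal vein hold most urea and amino acid enzymes, and those around the central vein hold other enzymes. Of 11 periportal markers 0 were called higher and 7 lower (median -0.62, 9 lower without animal 373), and of 11 pericentral markers 0 were called either way (median 0.05, 3 lower without animal 373). Of 16 general hepatocyte markers 9 were called lower (median -0.34). Cdh1, E-cadherin of periportal hepatocytes and bile ducts, was at 34.9, 14.0, 33.8, 28.8 and 37.2 CPM in HF/HS livers and 108, 75.7, 112, 111 and 93.7 CPM in control livers (-1.75 ± 0.27, adjusted p = 3.15e-06). The groups were far apart. The diet effect on Cdh1 was 1.02 ± 0.28 in males at 60 weeks, a difference of -2.77 ± 0.38 (adjusted p = 4.51e-06), and -1.91 ± 0.27 in females at 20 weeks. Cps1, Gls2 and Hal are in the periportal list too. The periportal list level was 7.61, 7.55, 7.78, 7.83 and 7.51 in HF/HS animals and 8.59, 8.32, 8.28, 8.38 and 7.94 in control animals, the lowest control being animal 373.

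Genes of cytosolic ribosomal proteins were lower by small amounts, 0 higher and 32 lower of 35 (median -0.27). Rps18, a protein of the small subunit, was at 115, 98.8, 96.2, 92.5 and 92.9 CPM in HF/HS livers and 118, 136, 143, 163 and 134 CPM in control livers (-0.48 ± 0.08). HF/HS animal 261 nearly met the lowest control, and the other HF/HS animals were below it. Within animal numbers under 300 the list stood at 0 higher and 0 lower with a median of -0.15, within 300 or over at 0 and 32 with a median of -0.35. CPM values are shares of the RNA counted in a library, so the content of ribosomal protein RNA per cell was not measured.

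Acute phase and complement genes were lower on average, 0 higher and 19 lower of 35 (median -0.75), but the controls did not form 1 group. The list level was 8.92, 8.51, 8.39, 8.62 and 8.38 in HF/HS animals and 8.07, 8.09, 9.69, 8.86 and 10.20 in control animals. Controls 371 and 373 were above all HF/HS animals, and controls 181 and 182 below all of them. Without animal 373 the count was 1 higher and 12 lower, without animal 411 it was 12 lower, and in a fit of these 10 libraries alone 7 lower. Within animal numbers under 300 it was 2 higher and 0 lower (median 0.09), within 300 or over 0 higher and 28 lower (median -1.22). Apcs, serum amyloid P, was at 32.1, 65.2, 81.9, 68.2 and 96.1 CPM in HF/HS livers and 27.3, 65.7, 512, 93.1 and 1674 CPM in control livers (-2.79 ± 0.60, and -1.34 without animal 373). Orm1, an acid glycoprotein of the acute phase with near-identical relatives, was at 71.7, 23.2, 68.8, 43.6 and 64.0 CPM in HF/HS livers and 12, 3.36, 477, 135 and 1419 CPM in control livers. Its change of -2.92 ± 1.01 was not called without animal 373 (-1.53) or without animal 271 (-2.73), and it was 2.63 within animal numbers under 300.

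Abundant plasma protein genes of this list were highest in controls 371 and 373 as well. Itih4, an acute phase inhibitor, was at 1973, 1549, 1463, 1625 and 1410.4 CPM in HF/HS livers and 1926, 2034, 3927, 2578 and 8538 CPM in control livers (-1.24 ± 0.25). Fgb, the fibrinogen beta chain, was at 3760.3, 2747, 2132, 2480.5 and 2240.3 CPM in HF/HS livers and 3366, 3624, 5393, 4428 and 7082 CPM in control livers (-0.84 ± 0.17). C3, the central complement component, was at 6573, 6118, 5164, 5920.2 and 5328 CPM in HF/HS livers and 6036, 6873, 9884, 7128 and 17114 CPM in control livers (-0.69 ± 0.19, and -0.35, not called, without animal 373). Control animal 373 was the highest and control animal 371 the second highest in all of them. Against males at 60 weeks 1 list member was called higher and 16 lower in the difference of diet effects, beside 4.06% and 5.19% of all genes. Without animal 373 these counts were 1 and 1, beside 2.8% of all genes lower. What raised these genes in the control animals was not tested.

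**Figure D5:**
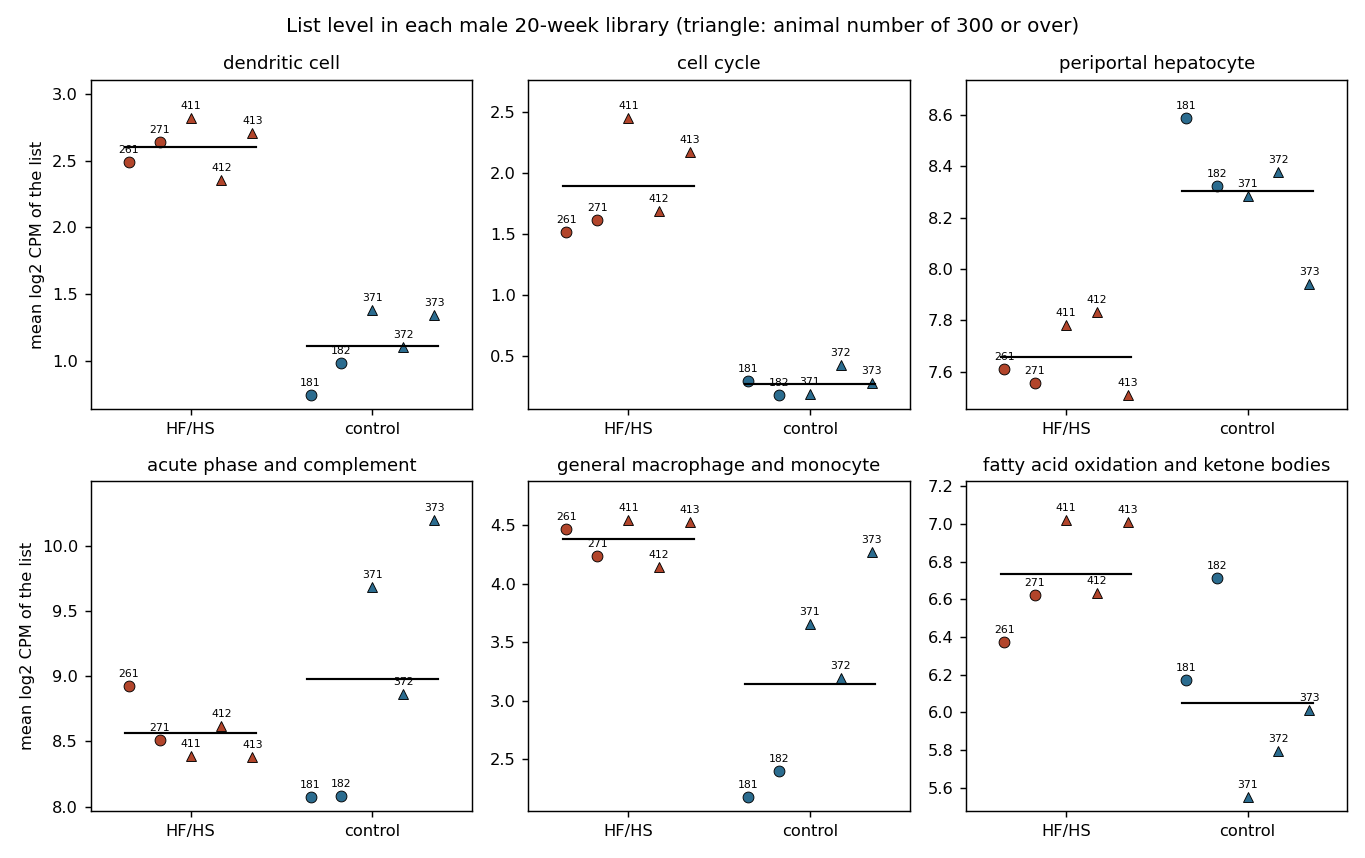
Mean log2 CPM of 6 lists in each library, HF/HS left and control right, with animal numbers, triangles for numbers of 300 or over and a line at the group mean. Dendritic cell and cell cycle levels separate the diets, periportal levels do so in the other direction, and acute phase, macrophage and fatty acid oxidation levels differ among the control animals by their number range.

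Large decreases outside these groups were those of a transporter, a dynein and several receptors and enzymes. Slc3a1, the heavy chain of a cystine and dibasic amino acid transporter (chr17:85028376-85064236, plus strand), was at 94.1, 48.2, 54.3, 66.0 and 56.9 CPM in HF/HS livers and 148, 119, 364, 226 and 691 CPM in control livers (-2.28 ± 0.28, adjusted p = 5.55e-08). Dnah17, an axonemal dynein heavy chain, was at 0.220, 0.270, 0.270, 0.505 and 0.0600 CPM in HF/HS livers and 5.08, 0.971, 8.40, 4.13 and 2 CPM in control livers (-3.95 ± 0.58). Adgrf1, an adhesion receptor, was at 3.52, 5.86, 1.35, 2.16 and 0.660 CPM in HF/HS livers and 20.7, 34.4, 36.8, 46.2 and 10.2 CPM in control livers (-3.45 ± 0.47). The groups were apart in all of them, with Slc3a1 highest in controls 371 and 373. Mpv17l, an organelle membrane protein, was lower by the test (-2.01 ± 0.30). Acpp, an acid phosphatase, was at 13.8, 11.9, 16.9, 13.4 and 12.6 CPM in HF/HS livers and 49.5, 20.4, 109.7, 37.4 and 270.4 CPM in control livers (-2.83 ± 0.46, and -1.98 without animal 373), and Gucy2c, guanylate cyclase C, was highest in animal 373 at 9.05 CPM as well (-3.22 ± 0.65, and -2.09 without it). Trat1, a T cell receptor adaptor, was at 0.661, 0.404, 0, 0 and 0.0600 CPM in HF/HS livers and 0.787, 2.02, 44.4, 23.7 and 72.1 CPM in control livers, so that its change of -6.98 ± 1.06 came from controls 371, 372 and 373 (-6.28 without animal 373, -7.87 without animal 261). Moxd1, a male-biased monooxygenase, was at 259, 111, 27.7, 191 and 13.1 CPM in HF/HS livers and 492, 696, 1056, 1179.7 and 342 CPM in control livers. It was lowest in animals 411 and 413, and the change of -2.65 ± 0.89 was not called without animal 411 (-2.38) or animal 413 (-2.34).

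Among genes whose diet effect differed from other times or from females, Ddah1 was called against both males at 60 weeks and females. Of the genes named, Eda2r, Phlda3, Bub1, H2-Eb1 and Myc were called against both as well. Eda2r and Myc were also called against males at 40 weeks. Ddah1, which degrades the nitric oxide synthase inhibitor dimethylarginine (chr3:145758675-145894277, plus strand), was at 94.6, 135, 174, 116 and 195 CPM in HF/HS livers and 19.3, 11.3, 10.9, 4.72 and 21.8 CPM in control livers (3.37 ± 0.30, adjusted p = 1.67e-11). The lowest HF/HS animal was far above the highest control. The effect was 2.68 ± 0.28 at 40 and 0.65 ± 0.26 at 60 weeks in males, and 0.68 ± 0.26 in females at 20 weeks. The differences against males at 60 weeks (2.72 ± 0.39, adjusted p = 6.99e-06) and against females (2.70 ± 0.39, adjusted p = 3.93e-05) were called, and that against 40 weeks (0.69 ± 0.39) was not. Sfmbt2, a polycomb group protein, was at 4.55, 1.95, 5.20, 4.83 and 4.20 CPM in HF/HS livers and 0.931, 0.971, 0.282, 0.787 and 0.665 CPM in control livers (2.51 ± 0.38), against effects of -0.14 ± 0.31 at 40 and -1.41 ± 0.29 at 60 weeks. Myc, the growth regulator, was at 11.7, 4.18, 10.2, 11.3 and 12.1 CPM in HF/HS livers and 72.9, 25.2, 19.4, 28.3 and 5.32 CPM in control livers. Control animal 181 was far above the rest and animal 373 within the HF/HS range, and the change of -1.61 ± 0.31 was -0.97 without animal 181. Jchain, the joining chain of secreted antibodies, was at 1.14 to 2.79 CPM in HF/HS livers and 2.93 to 5.39 CPM in control livers (-1.25 ± 0.33), and its effect at 60 weeks was 1.45 ± 0.29.

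In A4gnt, Tcf24 and Slc22a27 the size of the diet effect at 20 weeks depended on single animals. A4gnt, a glycosyltransferase of mucins, was at 6.31, 4.31, 30.0, 6.42 and 23.5 CPM in HF/HS livers and 6.16, 0.448, 2.19, 0.295 and 0.266 CPM in control livers (2.88 ± 0.65, and 4.09 without animal 181). Tcf24, a helix-loop-helix factor, was at 1.03, 0.674, 2.23, 1.01 and 2.94 CPM in HF/HS livers and 5.37, 2.02, 23.4, 3.15 and 50.6 CPM in control livers (-3.41 ± 0.50, and -2.42 without animal 373). Slc22a27, an organic anion transporter with near-identical relatives, was at 1.98, 1.42, 8.84, 2.16 and 6.6 CPM in HF/HS livers and 0.573, 0.0747, 0.282, 0 and 1.93 CPM in control livers (2.76 ± 0.65, and 4.05 without animal 373). Groups overlapped in all of them. At 60 weeks in males the effects were -2.15 ± 0.53 for A4gnt and 1.18 ± 0.46 for Tcf24, both called as different from 20 weeks. Both of these calls held in each of the 20 fits that left out 1 library of the comparison. The effect on Slc22a27 in females at 20 weeks was -0.44 ± 0.34, a difference of 3.20 ± 0.74 that was called, but not without animal 181, 182, 371, 411 or 413.

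Of 19 genes of defence against oxidants 7 were called higher and 0 lower (median 0.15), beside 14.3% higher and 14.5% lower over all genes. Slc7a11, the cystine importer, had 99 counts over the HF/HS libraries and 2 over the control libraries, a ratio of 44.7 with an exact 95% interval of 12.1 to 375. Srxn1, sulfiredoxin, was at 71.7, 64.4, 85.2, 64.3 and 94.4 CPM in HF/HS livers and 45.7, 29.7, 44.4, 33.8 and 38.4 CPM in control livers (0.98 ± 0.14, adjusted p = 1.37e-06). Both separated the groups without overlap. Atf3, a stress-induced transcription factor, rose by 2.88 ± 0.43, while the endoplasmic reticulum stress list it belongs to had 3 called higher and 5 lower of 22 (median -0.16). Its 3 higher were near the share over all genes, and the 5 lower became 2 to 8 with single libraries left out and 0 in a fit of these 10 libraries alone. Of 30 xenobiotic genes 6 were called higher and 2 lower (median 0.19), with 0 lower without animal 411 or 413 and 4 without animal 373. Cyp3a11, the main Cyp3a oxidase of mouse liver, was at 1029, 592, 1159, 533 and 1159.9 CPM in HF/HS livers and 335, 235, 142, 206 and 79.8 CPM in control livers (2.17 ± 0.45), where reads can be shared within the family. Its effect in females at 20 weeks was 5.36 ± 0.54, a called difference of -3.20 ± 0.66. Ephx1, microsomal epoxide hydrolase, rose by 1.09 ± 0.30 with controls 181 and 182 at 403 and 419 CPM, near the HF/HS range of 489 to 576 CPM, and Cyp2a5, from another family that can share reads, rose by 1.68 ± 0.34. Gsta1, a glutathione transferase with close relatives, was at 1.62 to 4.72 CPM in HF/HS livers and 0 to 0.224 CPM in control livers (4.95 ± 0.82, and 5.56 without animal 182).

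Glucose genes stood near the background, 4 higher and 1 lower of 26 (median 0.03), with 2 higher without animal 371 and 3 lower without animal 261 or 373. Irs2, an adaptor of the insulin receptor, was at 76.8, 56.9, 70.6, 37.7 and 38.0 CPM in HF/HS livers and 181, 134, 153, 90.5 and 103 CPM in control livers (-1.24 ± 0.19, adjusted p = 2.45e-06). Every HF/HS animal was below every control animal. Against males at 60 weeks 8 of the 26 differences were called higher and 0 lower, beside 4.06% and 5.19% of all genes. The count against males at 40 weeks was 5 higher and 0 lower, beside 0.86% and 1.31% of all genes. Both counts were the same without animal 373.

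Other lists are given by their counts, to be set beside 14.3% of all genes called higher and 14.5% lower. In the main fit the retinoid, clock and mitochondrial lists lay below both shares. Hepatokines and systemic signals had 8 higher and 7 lower of 25, and 3 lower without animal 411 or 4 without animal 413. Sterol export genes had 4 higher and 0 lower of 16, and 2 higher without animal 372, 411 or 413. Retinoid genes had 2 higher and 1 lower of 20, counts that ran from 0 to 2 each with single libraries left out (0 higher without animal 413, 0 lower without animal 371). Clock genes had 0 higher and 2 lower of 20, and 2 higher without animal 182 or 261. Fetal liver and tumour genes, to which Ly6d and Scd2 belong, had 8 higher and 2 lower of 20, and 5 higher without animal 181, 371 or 413. Genes of mitochondrial respiration had 0 higher and 3 lower of 32, with 11 lower without animal 373, 5 without animal 261 and 1 without animal 181. Male-biased liver genes had 1 higher and 6 lower of 24, with 12 lower without animal 373 and 3 without animal 411 or 413. Female-biased genes had 8 higher and 6 lower of 25, with 10 and 2 without animal 373, 4 higher without animal 413 and 5 higher without animal 181, 371, 372 or 411. In animal 373 the male-biased list was at a mean log2 CPM of 6.08, against 7.82 to 8.08 in the other controls, and the female-biased list at 2.80, against 0.37 to 0.55. Cyp3a44, a female-biased gene of the Cyp3a family, was at 3.67, 0.741, 3.98, 0.865 and 4.38 CPM in HF/HS livers and 1.07, 0.896, 1.13, 0.689 and 91.5 CPM in control livers. Its change of -2.81 ± 0.70 rested on animal 373 alone and was 1.52 without it (adjusted p = 0.0256, edgeR).

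Markers of neighbouring tissues and of further blood cells differed from list to list. Over all genes 14.3% were called higher and 14.5% lower. Pancreatic genes had 0 called of 14, adipose genes 0 of 7, neutrophil markers 0 of 6 and B and plasma cell markers 1 higher and 2 lower of 9. Muscle genes had 0 higher and 7 lower of 11, and 4 lower without animal 372. Ckm, muscle creatine kinase, was at 0, 0.135, 0, 0.361 and 0.300 CPM in HF/HS livers and 0.573, 0.0747, 0, 27.6 and 13.5 CPM in control livers (-5.60 ± 1.56, and -4.41 without animal 372), and the signal was that of controls 372 and 373. Gut and gallbladder markers had 2 higher and 1 lower of 5 tested, with Muc13 called higher and 4 of the 12 listed at 0 counts in all 10 libraries. Mesothelium and kidney markers had 2 higher and 0 lower of 5, and erythroid markers 0 and 1 of 3. Counts of the B and plasma cell, mesothelium and kidney, erythroid, Kupffer cell and sinusoidal endothelial lists stayed between 0 and 2 with single libraries left out. The part of these tissues in the results above was not tested.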

How the data were processed

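Liver total RNA of 60 CC042/GeniUnc mice was sequenced, and the 10 libraries of male mice after 20 weeks were grouped by their labels. Per the labels' protocols, flash frozen livers gave the RNA, and stranded libraries were made from 500 ng after ribosomal RNA had been removed. The authors deposited a table of raw counts by gene symbol, in whole numbers. The build named is mm10 (per the submitters' processing notes). How reads were aligned and counted, with which annotation and whether by strand, is not stated in these sources, so overlapping and antisense genes are uncertain. Columns that could not be mapped to a sample numbered 0. In 26 lines the symbol had become a date. These held 0.201% of the counts and stayed in totals and tests but were not named.

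From the 24982 entries, filterByExpr (minimum count 10, minimum total 15) kept 14180 genes. edgeR 4.0.16 (R 4.3.3) fitted 12 group means to all 60 libraries after TMM normalisation (trimmed mean of M values), with no covariate, and quasi-likelihood tests were adjusted by Benjamini-Hochberg over all genes tested. Genes were called at an adjusted p under 0.05. Each standard error is the absolute log2 fold change divided by the root of its F statistic. Contrasts were the diet effect in males at 20 weeks and its differences from males at 40 and 60 weeks and from females at 20 weeks, which share no library with it. Totals of 10923963 to 16017386 counts set the precision of low genes. Where a group had 0 counts, a bound used 3 counts for the whole group, and against 1 to 3 counts a ratio was given with an exact 95% interval, both for counting error only. List levels are mean log2 CPM (prior count 2). No 2 libraries of a group agreed within sampling noise (lowest chi-square over its degrees of freedom 10.4).

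Alternatives were RLE size factors, DESeq2 1.42.0, limma 3.58.1 voom with quality weights, no filter, removal of small non-coding RNA genes, the animal number range as a covariate, either number range alone, the comparison's own libraries alone and each library left out. Genes could be named if they were among the 12 highest or 12 lowest called log2 fold changes (mean CPM at least 1, a full symbol, groups that do not overlap), the 4 largest called changes of a list, a panel of known liver genes, the 5 highest or 5 lowest called differences of each kind (likewise called at 20 weeks in males), or the 6 largest called increases or decreases in mean CPM. Examples were drawn from these 206 genes. The members and the 45 lists were chosen with earlier results of these data known. Positions are those of GENCODE M21 (mm10) by symbol, and promoters those of RefSeq (GRCm38.p6).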

Additional observations from a re-analysis of the deposited data

Results flagged for a closer look

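Among groups of 5 animals, the gap between the most distant animal and its nearest neighbour was set against the whole range (Dixon's ratio), with a limit of 0.71. Of 294 groups searched, over list levels and the genes named, 21 passed, and chance gives about 1 in 20. In the HF/HS group these were the level of ribosomal proteins (0.859, animal 261 highest), the level of T and natural killer cell (0.819, animal 411 highest), Gpnmb (0.763, animal 412 lowest), Krt23 (0.739, animal 261 lowest), Myc (0.758, animal 271 lowest) and Rps18 (0.715, animal 261 highest). In the control group 11 of the 15 were set by animal 373, namely level of male-biased liver genes (0.867, lowest), level of female-biased liver genes (0.928, highest), level of pericentral hepatocyte (0.822, lowest), level of erythroid cell (0.762, highest), level of pancreas (0.899, highest), Atp6v0d2 (0.945, highest), Cd36 (0.825, highest), Cyp3a44 (0.995, highest), Gucy2c (0.73, highest), Ly6d (0.906, highest) and Pdgfrb (0.713, highest). The others were Atf3 (0.754, animal 371 highest), Cdkn1a (0.838, animal 371 highest), Elovl6 (0.815, animal 181 highest) and Fasn (0.765, animal 181 highest).

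Diet effects of the genes named that differed from those of males at 40 weeks, as the log2 difference with its standard error (adjusted p under 0.05, edgeR), were more positive at 20 weeks in males for Gpnmb (5.21 ± 1.11), A4gnt (3.52 ± 0.84), Mmp12 (3.15 ± 0.84), Sfmbt2 (2.65 ± 0.50), Eda2r (1.56 ± 0.42) and Abcb4 (0.52 ± 0.15). More negative ones were those of Tcf24 (-3.99 ± 0.77), Gucy2c (-3.27 ± 0.92), Apcs (-2.90 ± 0.82), Myc (-2.66 ± 0.45), Sqle (-2.49 ± 0.65), Jchain (-2.09 ± 0.47), Slc3a1 (-1.45 ± 0.38), Cdh1 (-1.41 ± 0.38) and Idi1 (-1.41 ± 0.39). Of these 15 calls, 6 held in each of the 20 fits that left out 1 library of the comparison, and 9 were lost in at least 1, namely those of Abcb4 (7), Apcs (16), Cdh1 (12), Eda2r (6), Gucy2c (15), Idi1 (13), Mmp12 (2), Slc3a1 (15) and Sqle (13), with the number of such fits in brackets. Without control animal 373 the lost calls were those of Abcb4 (0.49), Apcs (-1.41), Cdh1 (-1.39), Gucy2c (-2.11), Slc3a1 (-0.87) and Sqle (-2.25), with the difference without it in brackets.

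Diet effects of the genes named that differed from those of males at 60 weeks, as the log2 difference with its standard error (adjusted p under 0.05, edgeR), were more positive at 20 weeks in males for Sprr1a (7.23 ± 2.01), Gpnmb (6.83 ± 1.02), A4gnt (5.03 ± 0.84), Mmp12 (4.96 ± 0.81), Ccl22 (4.93 ± 1.35), Mogat1 (4.59 ± 0.93), Gsta1 (4.15 ± 1.04), Sfmbt2 (3.92 ± 0.48), Gdf15 (3.37 ± 0.52), H2-M2 (3.36 ± 0.94), Bub1 (3.29 ± 0.99), Slc7a11 (3.20 ± 1), Krt23 (3.06 ± 0.79), Cxcl10 (2.94 ± 0.57), Mmp13 (2.83 ± 0.59), Cyp2a5 (2.74 ± 0.47), Ddah1 (2.72 ± 0.39), Eda2r (2.66 ± 0.42), Phlda3 (2.61 ± 0.46), Themis (2.56 ± 0.74), Itgax (2.53 ± 0.58), Fitm1 (2.36 ± 0.50), Elovl6 (2.30 ± 0.62), Ccl2 (2 ± 0.63), Atf3 (1.99 ± 0.56), Cd36 (1.69 ± 0.38), Abcc3 (1.67 ± 0.41), Aldh3a2 (1.56 ± 0.38), Ephx1 (1.40 ± 0.42), Tnfrsf10b (1.25 ± 0.38), H2-Eb1 (1.12 ± 0.37) and Abcb4 (0.69 ± 0.15). More negative ones were those of Trat1 (-10.83 ± 3.55), Orm1 (-5.39 ± 1.42), Tcf24 (-4.59 ± 0.68), Sqle (-3.75 ± 0.66), Moxd1 (-3.71 ± 1.25), Fabp5 (-3.48 ± 0.65), Gucy2c (-3.34 ± 0.92), Apcs (-3.23 ± 0.82), Cdh1 (-2.77 ± 0.38), Jchain (-2.70 ± 0.44), Acpp (-2.35 ± 0.63), Slc3a1 (-2.31 ± 0.39), Adgrf1 (-2.27 ± 0.69), Myc (-2.13 ± 0.45), Idi1 (-1.87 ± 0.40), Asns (-1.82 ± 0.58), Cyp51 (-1.39 ± 0.33), Mpv17l (-1.35 ± 0.43), Itih4 (-1.35 ± 0.35), Fgb (-0.86 ± 0.24), C3 (-0.82 ± 0.27) and Rps18 (-0.37 ± 0.11). Of these 54 calls, 33 held in each of the 20 fits that left out 1 library of the comparison, and 21 were lost in at least 1, namely those of Acpp (1), Adgrf1 (8), Apcs (1), Asns (11), Atf3 (1), Bub1 (3), C3 (15), Ccl2 (6), Ephx1 (2), Fgb (3), Gucy2c (2), H2-Eb1 (11), Itih4 (1), Moxd1 (13), Mpv17l (12), Orm1 (1), Rps18 (9), Slc7a11 (5), Themis (1), Tnfrsf10b (2) and Trat1 (15), with the number of such fits in brackets. Without control animal 373 the lost calls were those of Acpp (-1.48), Apcs (-1.76), Asns (-1.56), C3 (-0.46), Fgb (-0.65), Gucy2c (-2.2), H2-Eb1 (1.17), Itih4 (-0.79), Moxd1 (-3.9), Orm1 (-3.99), Tnfrsf10b (1.18) and Trat1 (-10.12), with the difference without it in brackets. The difference for Moxd1 ran from -7.13 to 1.78 with single libraries left out, so that neither its sign nor its size was stable.

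Diet effects of the genes named that differed from those of females at 20 weeks, as the log2 difference with its standard error (adjusted p under 0.05, edgeR), were more positive at 20 weeks in males for Bmp8b (4.46 ± 1), Bub1 (3.93 ± 0.98), Slc22a27 (3.20 ± 0.74), Ddah1 (2.70 ± 0.39), Atp6v0d2 (2.20 ± 0.55), Phlda3 (2.09 ± 0.49), Fcgr1 (2.07 ± 0.49), Ccr2 (1.94 ± 0.45), Eda2r (1.85 ± 0.42), Gbp3 (1.79 ± 0.38), Gbp2 (1.71 ± 0.40), H2-Aa (1.59 ± 0.39), H2-Eb1 (1.48 ± 0.37), Lyz2 (1.42 ± 0.35) and Cd74 (1.27 ± 0.33). More negative ones were those of Cyp3a11 (-3.20 ± 0.66) and Myc (-1.99 ± 0.46). Of these 17 calls, 3 held in each of the 20 fits that left out 1 library of the comparison, and 14 were lost in at least 1, namely those of Atp6v0d2 (12), Bmp8b (1), Bub1 (10), Ccr2 (7), Cd74 (13), Eda2r (3), Fcgr1 (6), Gbp2 (3), H2-Aa (7), H2-Eb1 (12), Lyz2 (8), Myc (4), Phlda3 (3) and Slc22a27 (5), with the number of such fits in brackets.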

How the results depend on the processing

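The count of 4096 called genes was 1771 in a fit of these 10 libraries alone and 1141 within animal numbers under 300. It was 3076 (without animal 411) to 4384 (without animal 373) with single libraries left out. The difference from males at 40 weeks (308 genes, 122 higher and 186 lower) was 839 with voom quality weights and 201 without a filter, and 140 (without animal 493) to 581 (without animal 182) with single libraries left out. It moved by over 1.5 times without animal 181, 182, 371, 373, 492, 493, 501, 412, 521, 522 or 523. Of its calls 49.8% were higher with RLE size factors and 63.3% of 313 with small non-coding RNA genes removed, so its split into higher and lower depends on the scaling. The difference from males at 60 weeks (1312) was 346 in a fit of its own libraries and 872 (without animal 373) to 1710 (without animal 181) with single libraries left out. The difference from females (89) was 176 with DESeq2, 28 in a fit of its own libraries, 41 with voom and 53 without a filter. With single libraries left out it was 34 (without animal 181) to 616 (without animal 373, 510 higher and 106 lower), and it moved by over 1.5 times also without animal 182, 203, 301, 411, 413 or 421. The cause of these changes was not tested.

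Within animal numbers under 300, Apcs was at 0.093, Asns 0.0945, Cyp3a44 1.15, Elovl6 -0.26, Fasn -0.46 and Orm1 2.63, the opposite sign, 45 further genes of the 102 named were no longer called, and 51 kept their side of the threshold. In the fit of these 10 libraries alone 14 were no longer called and 81 kept their side of it. The rest of the 102 have no result in that fit, which filtered low counts anew on its own libraries. List counts moved by over 1.5 times in 52 of 90 cases within numbers under 300 and in 37 in the fit of these libraries alone. Cyp3a44 was at 0.42 with voom, and between -3.13 (without animal 182) and 1.52 (without animal 373) with single libraries left out. Of the 102 genes named, 27 had a library whose omission changed the call or moved the fold by over 1.5 times, and these are given with their values in the text. No paired analysis was possible because every library has an animal number of its own and no number is shared between groups. Totals of 10923963 counts or more leave genes with a handful of counts, such as Ccl22 and Bub1, with wide intervals.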
